A study of Homo sapiens with 4 samples.

Results

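The ubiquitin C-terminal hydrolase family was represented by 4 genes, UCHL1, UCHL3, UCHL5 and BAP1, out of 12978 named genes that had spots on the array after those marked bad were dropped. They were found by gene symbol and had 5 spots. The platform table named the single spots of UCHL1, UCHL3 and UCHL5, and the scanner files' descriptions named 2 spots for BAP1, the second through the synonym HUCEP-13. UCHL1 was included because its ratio was known to be high, so its ratios are given as a description without a test, while the other genes were included as its relatives. DLD-1 and HT-29 cells, both established human colorectal cancer lines, were exposed to 1 µM 5-aza-2'-deoxycytidine for 96 h after 24 h of culture, and were set against cells of their own line without the drug. The labels give no other difference between treated and untreated cells. The drug is a cytidine analogue that is built into replicating DNA, traps DNA methyltransferases there and so lowers DNA methylation. RNA of treated and untreated cells of a line was hybridised together on 2 arrays, array 1 with treated RNA in Cy5 and array 2 with the dyes exchanged, for 4 arrays in all. Whether the hybridisations used separate cultures is not in the labels, so each line counted as 1 replicate and values per line are the mean ± SD of its 2 arrays.

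Ubiquitin C-terminal hydrolases are cysteine proteases that cut at the C-terminal end of ubiquitin and free it from small adducts, precursors or proteins. UCHL1 is one of the most abundant proteins of neurons, is scarce in most other adult tissues, and its promoter is known to be methylated in several carcinomas. UCHL3 is expressed in many tissues and also removes the ubiquitin-like protein NEDD8 from its precursor. UCHL5 (UCH37) works on the proteasome, where it binds ADRM1, and in the INO80 chromatin remodelling complex. BAP1 is a nuclear tumour suppressor that, with ASXL proteins, removes ubiquitin from histone H2A.

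In the RefSeq annotation of GRCh38.p14, UCHL1 lies on chromosome 4 at 41256928 to 41268455, UCHL3 on chromosome 13 at 75549502 to 75606020, UCHL5 on chromosome 1 at 193012254 to 193060076 and BAP1 on chromosome 3 at 52401008 to 52410008. DNA methylation in human cells falls mainly on CpG, so the 250 bases before the annotated gene start of UCHL1 are shown beside those of UCHL3 and UCHL5 that the RefSeq promoter table holds, 5′ to 3′ on the gene's strand with each CG in capitals. The windows are chr4:41256678-41256927 (plus strand), chr13:75549252-75549501 (plus strand) and chr1:193060077-193060326 (minus strand).
UCHL1: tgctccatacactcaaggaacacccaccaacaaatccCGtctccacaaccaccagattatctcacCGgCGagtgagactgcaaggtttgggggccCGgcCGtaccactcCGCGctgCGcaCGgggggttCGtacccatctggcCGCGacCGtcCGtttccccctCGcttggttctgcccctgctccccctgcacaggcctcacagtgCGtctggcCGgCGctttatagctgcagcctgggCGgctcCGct
UCHL3: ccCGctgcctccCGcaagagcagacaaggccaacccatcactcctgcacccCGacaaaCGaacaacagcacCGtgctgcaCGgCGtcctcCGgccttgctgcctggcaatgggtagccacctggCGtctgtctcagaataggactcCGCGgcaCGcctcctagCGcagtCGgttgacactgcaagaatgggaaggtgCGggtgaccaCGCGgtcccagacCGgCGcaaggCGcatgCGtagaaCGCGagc
UCHL5: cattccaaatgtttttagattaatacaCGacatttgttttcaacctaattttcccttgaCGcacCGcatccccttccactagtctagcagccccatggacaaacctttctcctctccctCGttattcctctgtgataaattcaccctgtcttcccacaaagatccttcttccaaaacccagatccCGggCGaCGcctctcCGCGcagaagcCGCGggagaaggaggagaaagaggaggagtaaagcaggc
The motif searched was CG, which reads the same on both strands. Counting 50 further bases past the start, the window of UCHL1 held 25 CG, that of UCHL3 28 and that of UCHL5 17. Of 35116 such promoter windows 96.0% held a CG, with a median of 14. As many as in UCHL1 were found in 32.0% of windows, as many as in UCHL3 in 26.2% and as many as in UCHL5 in 46.0%. The promoter of UCHL1 was thus CpG-rich, but no richer than that of UCHL3. Methylation was not measured in the files used here.

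The sources used here leave the direction of array 2 unsettled. On array 1 of each line the labels place untreated RNA in channel 1 and treated RNA in channel 2. On array 2 they list treated RNA first, as Cy3, while the scanner files label their columns by channel number only, without a dye. The working reading here is that channel 2 held treated RNA on every array. That reading was chosen with the values known, partly from the probes with the strongest ratios, and UCHL1 is a gene whose sign it makes the same on both arrays. The positive sign of UCHL1 on array 2 is therefore built in and supports nothing, and the means of the genes and the medians of the main lists are also given in the labels' channel order, which turns the sign of array 2. Over 18868 probes the log2 ratios of channel 2 over channel 1 on the 2 DLD-1 arrays had r = -0.45, and those on the 2 HT-29 arrays had r = 0.00, across probes that are not independent replicates. Array 1 of both lines had r = 0.51, and array 2 of both lines had r = -0.20. A negative r within a line is the sign that the labels' channel order gives, so the DLD-1 value goes against the working reading. Position in the printed blocks of the slide took 45.2% and 31.5% of the variance on DLD-1 arrays 1 and 2. Its part in these r values was not tested. Between 68.2% and 85.8% of the 29591 spots used were above background in a channel, which means more than 2 background SD over the local background, so passing that mark is not by itself a sign of expression. Of 13 colorectal epithelium markers 10 to 13 were above background in each channel of each array, and CDH17 and CDX1 passed in at most 1 and 2 of the 8 channels.

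UCHL1 was brighter in treated than in untreated RNA on array 1 of both lines, the arrays whose direction the labels give. On DLD-1 array 1 its spot had an intensity of 4424 in the treated channel over a local background of 332, and of 481 in the untreated channel over 402. The treated signal was 25.5 background SD above background there, and the untreated signal was not above background. On HT-29 array 1 the spot was far dimmer, with 354 over 49.5 in the treated channel and 308 over 338 in the untreated channel. Treated signal was again above background and untreated signal was not, so on array 1 of both lines UCHL1 was above background in treated cells alone. Of all spots used, 84.1% were above background in the treated and 68.2% in the untreated channel of HT-29 array 1. On DLD-1 array 1 these shares were 71.4% and 69.2%. In RNA of whole cultures, a change in the number of expressing cells and a change in RNA per cell cannot be told apart.

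On array 2 both channels were above background in both lines, and channel 2 was the brighter one. DLD-1 array 2 had 1641 over 483 in channel 2, against 427 over 76.3 in channel 1. HT-29 array 2 had 6338 over 507 in channel 2, against 2857 over 321 in channel 1. In the working reading channel 2 holds treated RNA here, and in the labels' channel order it holds untreated RNA. The 2 HT-29 arrays also differed in the level of UCHL1 itself. Background-subtracted signal was 305 and -30.1 in treated and untreated cells on array 1, while channels 2 and 1 of array 2 had 5831 and 2536. The median spot intensity on the HT-29 arrays was 796 and 958 in channels 2 and 1 of array 1, and 3447 and 2660 on array 2.

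**Figure D1:**
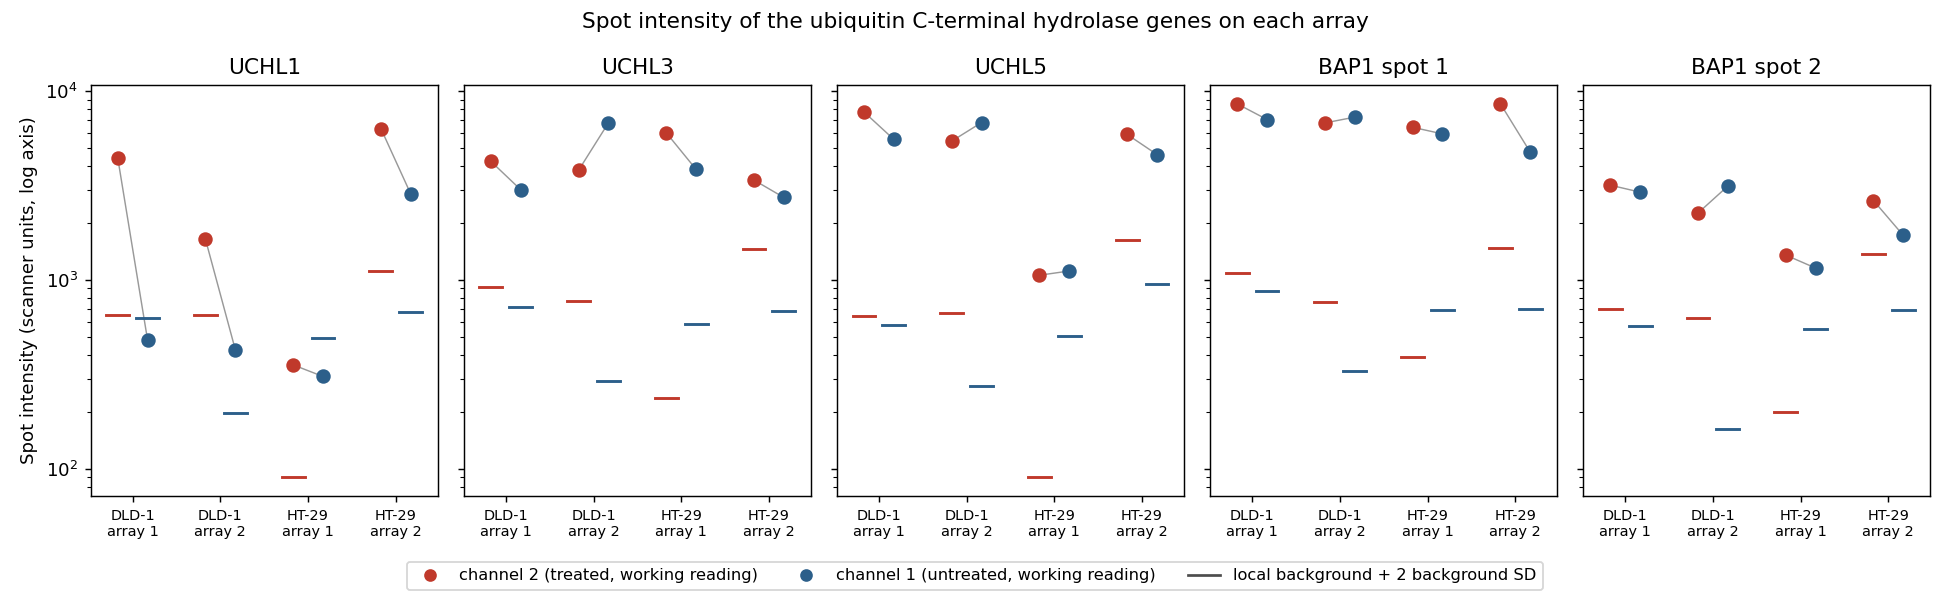
Intensity of each spot in scanner units on a log axis, by array, with channel 2 left of channel 1 and horizontal marks at the local background plus 2 background SD. UCHL1 falls below the mark in channel 1 of array 1 in both lines, while the spots of UCHL3, UCHL5 and BAP1 lie above it in all 8 channels.

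The signal of UCHL1 was set beside 288 spots that the files mark as negative controls or as having no probe, as the plot of control spots shows. In DLD-1 array 1 the treated signal of 4092 over background exceeded all of them (highest 1333), while the untreated signal of 78.7 exceeded 84.7% of them. In HT-29 array 1 the treated signal of 305 exceeded 99.0% of control spots, whose highest value was 522, and the untreated signal of -30.1 exceeded 61.5%. The HT-29 array 1 signal thus lay within the range of these control spots. On DLD-1 array 2 channel 2 (1158) exceeded all control spots and channel 1 (351) exceeded 99.0%, with a highest control value of 406. On HT-29 array 2 both channels exceeded all control spots, whose highest values were 1685 and 1745 in channels 2 and 1.

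**Figure D2:**
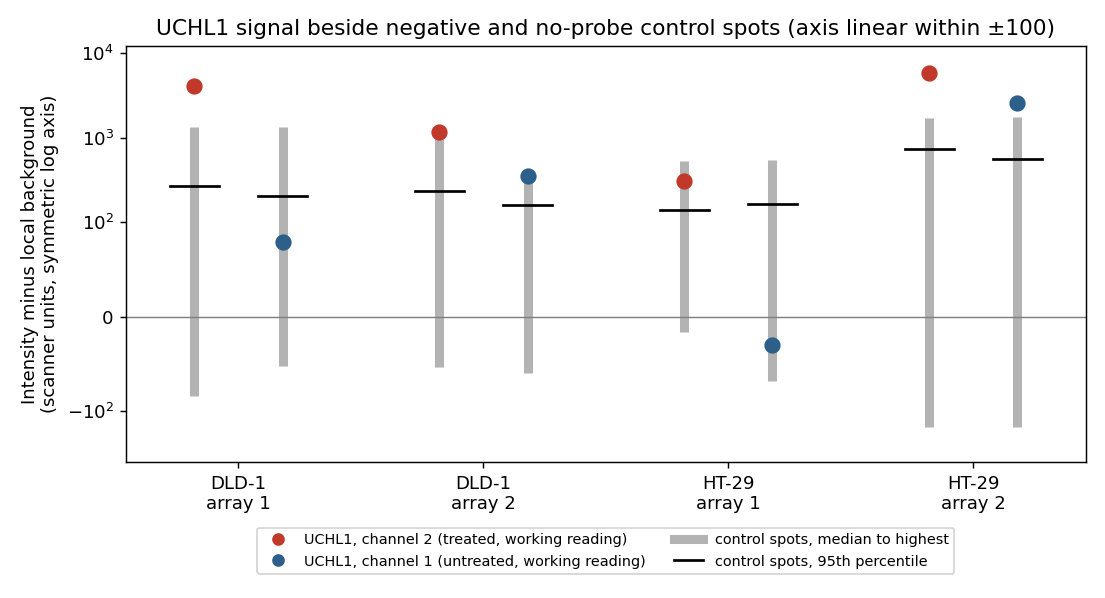
Background-subtracted intensity of UCHL1 (points, channel 2 left of channel 1) in scanner units on a symmetric log axis. Grey bars run from the median to the highest of 288 control spots, with black marks at their 95th percentile. On HT-29 array 1 both UCHL1 points lie inside the bars, and the untreated point of DLD-1 array 1 lies below the 95th percentile.

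Detection in treated RNA alone on both array 1 hybridisations was not rare among the array's spots. It was seen at 571 spots (1.93%), of which 198 (0.669% of all) also had both channels of array 2 above background as UCHL1 did, while the opposite pattern, untreated above background and treated not, at 6 (0.0203%). On array 2 of both lines 292 spots (0.987%) were above background in channel 1 alone and 5 (0.0169%) in channel 2 alone. On array 1 treatment and dye cannot be told apart, because treated RNA was in Cy5 in both lines. Of the 571 spots, 344 had a channel above background on array 2 of both lines. Among these, channel 2 was the brighter one on both array 2 hybridisations at 57 spots and channel 1 at 64. No other of the 344 spots had a ratio of channel 2 over channel 1 as high as that of UCHL1 on array 2 of both lines. UCHL1 was chosen for its high ratio and its own ratios set this cut-off, so that is a description and supports nothing. In the labels' channel order the same array 2 ratios have the opposite sign.

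The normalised log2 ratio of channel 2 over channel 1 for UCHL1 was 3.39 and 1.63 on DLD-1 arrays 1 and 2. It was 1.30 and 0.87 on HT-29 arrays 1 and 2. These ratios ranked 2nd, 15th, 148th and 224th from the top of 9093 genes measured on all 4 arrays. In the working reading the mean log2 ratio was 2.51 ± 1.25 in DLD-1 (SD over 2 arrays) and 1.08 ± 0.30 in HT-29. No fold is given, because untreated signal was above background on 1 of the 2 arrays of each line. The ratio was at least 1 on both DLD-1 arrays, and on 1 of the HT-29 hybridisations. With the sign of array 2 turned, as the labels have it, each line's arrays went opposite ways, leaving means of 0.88 ± 3.55 for DLD-1 and 0.21 ± 1.53 for HT-29. The treated direction of UCHL1 thus rests on array 1 alone unless the working reading is taken. In the authors' deposited table UCHL1 has no ratio on array 1 of either line, and log2 ratios of channel 2 over channel 1 of 1.96 for array 2 of DLD-1 and 1.03 for array 2 of HT-29.

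The ratio also depended on how dim signal and position on the slide were handled. The untreated channel on array 1 was at background, so the offset of 50 added in background correction limits how large its ratio can become there. With plain subtraction the DLD-1 mean became 3.56, and the HT-29 mean, with its untreated signal set to a floor of 1, became 3.80. Position in the 48 printed blocks took 23.2% to 49.7% of the variance of the log2 ratios of an array. The block that holds UCHL1 had a median ratio of 0.51 and -0.41 on DLD-1 arrays 1 and 2, and of 0.42 and 0.38 on HT-29 arrays 1 and 2. With block medians set to 0 the 4 ratios of UCHL1 were 2.88, 2.04, 0.88 and 0.49, which left an HT-29 mean of 0.68.

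UCHL3, UCHL5 and both BAP1 spots were above background in both channels of all 4 arrays, as were 47.9% of spots, and none of these relatives of UCHL1 passed the test. The limma test on the 2 line means, adjusted over all 9093 genes by Benjamini-Hochberg, raised 17 genes (0.187%) and lowered 4 (0.044%) in the working reading, and 0 of the 3 relatives were among them. In the labels' channel order it raised 57 (0.627%) and lowered 2 (0.022%), again with 0 of the relatives. At these shares a count of 0 in 3 genes says little about the family. The working reading was chosen partly from the probes with the strongest ratios, so its counts are no independent background. No p-value for UCHL1 is given because it was chosen on these ratios.

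UCHL3, the close relative of UCHL1, had intensities of 4244 and 3003 in treated and untreated cells on DLD-1 array 1 and of 6012 and 3846 on HT-29 array 1. On DLD-1 array 2 channels 2 and 1 had 3809 and 6791, and on HT-29 array 2 they had 3377 and 2732. Its log2 ratios in the working reading were 0.28, -0.69, 0.74 and -0.09 in the order of the arrays above, so the dye orientations disagreed within each line. The mean was 0.06 (SE 0.216, n = 2 lines, limma adjusted p = 0.996), with a 95% interval from -0.36 to 0.48. In the labels' channel order all 4 ratios were above 0 and the mean was 0.45 (limma adjusted p = 0.466). From array 1 of both lines alone, a setting chosen after the data were seen, it was 0.51 (limma adjusted p = 0.194).

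The log2 ratios of UCHL5, the proteasome-bound member, spanned a narrower range over the 4 arrays than those of UCHL3 or the averaged BAP1. Its intensities were 7752 and 5546 in treated and untreated cells on DLD-1 array 1, and 1058 and 1114 on HT-29 array 1. Channels 2 and 1 had 5436 and 6818 on DLD-1 array 2, and 5896 and 4614 on HT-29 array 2. The log2 ratios were 0.28, -0.05, 0.17 and 0.10, so DLD-1 had a mean of 0.12 ± 0.23 and HT-29 one of 0.13 ± 0.05. Over both lines the mean was 0.12 (SE 0.216, limma adjusted p = 0.994), with a 95% interval from -0.30 to 0.55. In the labels' channel order the mean was 0.10 (limma adjusted p = 0.924).

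The 2 spots of BAP1, the histone H2A deubiquitinase, differed. The spot described as BAP1 had log2 ratios of 0.04, 0.26, 0.11 and 0.73, positive on all 4 arrays. With the spots of a gene averaged, a ratio above 0 on all 4 arrays was found for 4.31% of genes and one below 0 for 3.6%. These are not shares of single spots, and the averaged BAP1 was above 0 on 2 of the 4 arrays. The spot named through HUCEP-13 had -0.13, -0.63, 0.48 and 0.25. At the first spot treated and untreated cells had intensities of 8564 and 7074 on DLD-1 array 1 and of 6434 and 5935 on HT-29 array 1. Channels 2 and 1 of that spot had 6786 and 7281 on DLD-1 array 2, and 8588 and 4758 on HT-29 array 2. Averaged, BAP1 had -0.11 ± 0.10 in DLD-1, and HT-29 had 0.39 ± 0.14. The mean of both was 0.14 (SE 0.216, limma adjusted p = 0.989) with a 95% interval from -0.29 to 0.56. In the labels' channel order the mean was -0.01 (limma adjusted p = 0.992). The first spot alone, an alternative chosen after the data were seen, gave a mean of 0.28 (limma adjusted p = 0.988).

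Within an array, UCHL1 lay above all 3 relatives on the scale of channel 2 over channel 1. The difference in log2 ratio between UCHL1 and the highest relative was 3.11 and 1.67 on DLD-1 arrays 1 and 2, and 0.56 and 0.39 on HT-29 arrays 1 and 2. Against the mean of the relatives it was 3.22, 1.93, 0.90 and 0.71. The relatives themselves ran from 0.17 to 0.74 on HT-29 array 1 and from -0.09 to 0.49 on HT-29 array 2, so the gap of UCHL1 to the highest of them was no wider than their own range there. UCHL1 was chosen on these ratios, so the gap is a description.

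**Figure D3:**
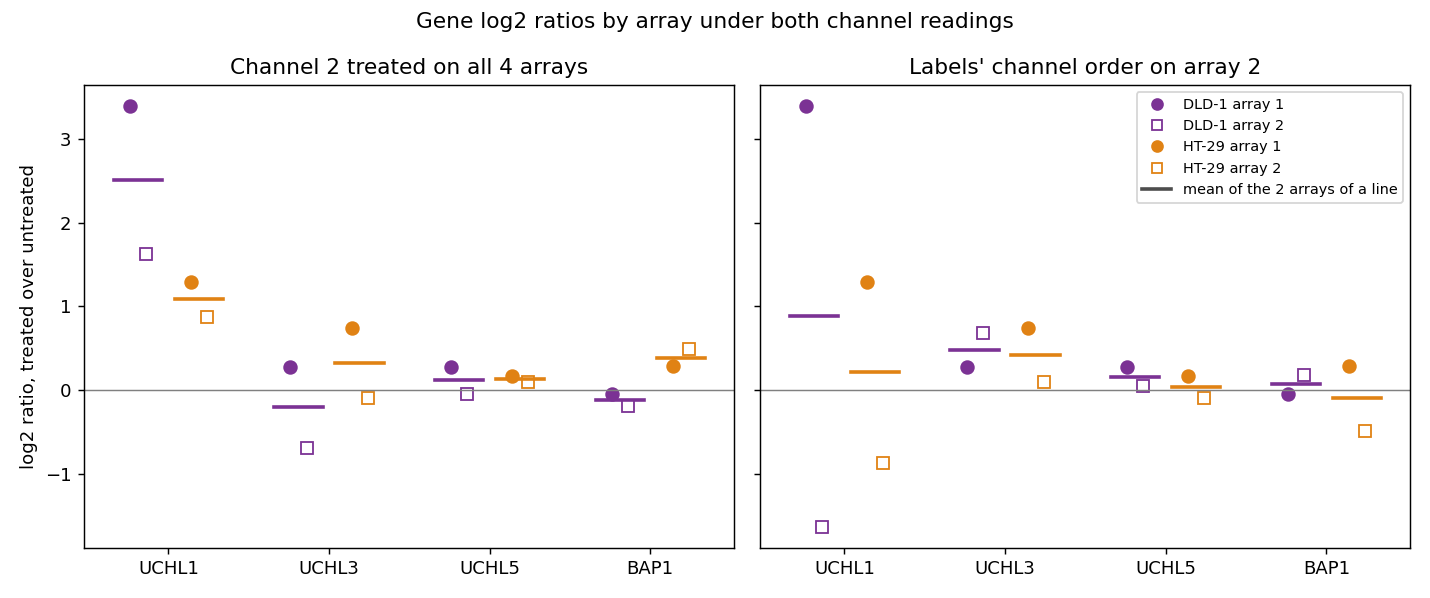
Gene log2 ratios of treated over untreated for each array (points) and line means (bars), with channel 2 as treated on all arrays (left) and with the sign of array 2 turned (right). On the left the 4 UCHL1 points run from 0.87 to 3.39 and lie above those of UCHL3, UCHL5 and BAP1 of the same array, while on the right the UCHL1 points of each line lie on both sides of 0.

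**Figure D4:**
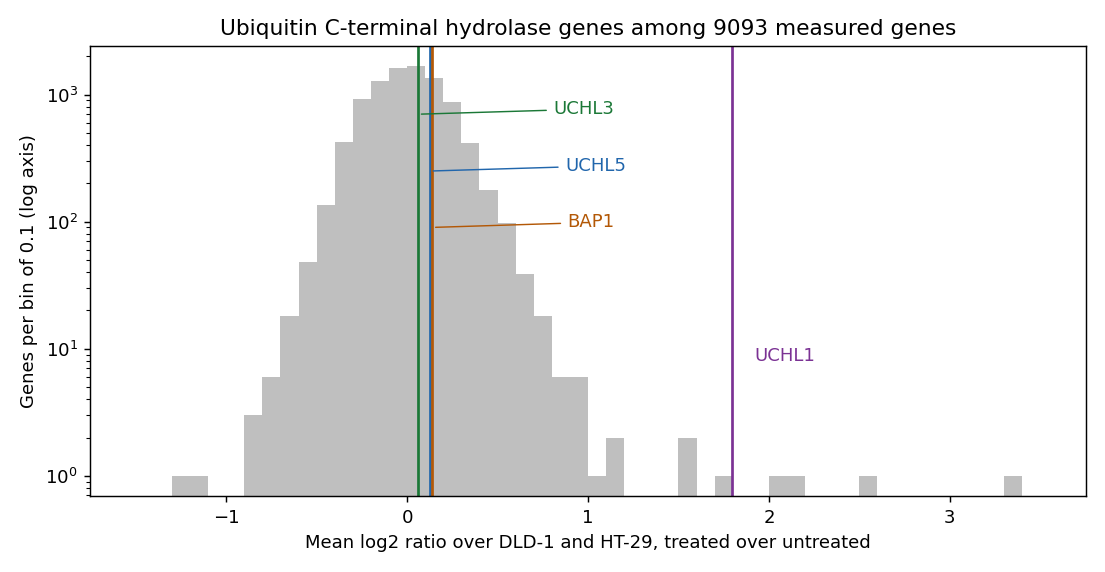
Number of genes (log axis) by mean log2 ratio over both lines, treated over untreated, in the working reading, for 9093 genes in bins of 0.1. UCHL3, UCHL5 and BAP1, at 0.06, 0.12 and 0.14, lie in the bulk of the genes and UCHL1 lies at 1.80.

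The level of the family in the cell lines was compared at matched channel and array number after loess and quantile scaling of mean signal, as normalised log2 intensity. UCHL5 was lower in HT-29 than in DLD-1 in all 4 comparisons, with differences of HT-29 minus DLD-1 of -1.40 and -0.94 in channel 1 and of -1.52 and -0.80 in channel 2 of arrays 1 and 2. The same held for 19.3% of 14182 spots above background in every channel, so it is common, and the lines were never on 1 array, so array and line cannot be told apart. UCHL3 had no settled order, with differences of HT-29 minus DLD-1 of 0.85 and -2.17 in channel 1 and of 1.32 and -1.58 in channel 2. UCHL1 had none either, with -0.34 and 1.91 in channel 1 and -2.44 and 1.15 in channel 2. On array 1 UCHL1 was not above background in channel 1 of either line. Its HT-29 signal in channel 2 of array 1 lay within the range of the control spots. Array 1 alone would place treated UCHL1 signal higher in DLD-1, and array 2 higher in HT-29. At BAP1 the first spot had no settled order, with 0.46 and -0.77 in channel 1 and 0.52 and -0.31 in channel 2. The second BAP1 spot, like UCHL5, was lower in HT-29 in all 4 comparisons, with -0.79 and -2.02 in channel 1 and -0.17 and -1.15 in channel 2.

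Other enzymes that remove ubiquitin were given as lists chosen with earlier results of these data known. Over all genes 455 of 9093 (5%) had an unadjusted p under 0.05, so counts of 0 or 1 in lists of this size lie near the background and are no result about a list. Of 35 ubiquitin-specific proteases on the array 28 were measured on all 4 arrays, and 0 passed limma in either direction in either reading, with 0 at an unadjusted p under 0.05. Their median log2 ratio was 0.05, beside 0.01 for all genes tested, and in the labels' channel order it was -0.05, beside 0.05. The highest means were those of USP48 (0.37) and USP3 (0.36), and the lowest those of USP30 (-0.40), a mitochondrial enzyme, and USP2 (-0.33). Of 20 other deubiquitinases 12 were measured and 0 passed, with 1 at an unadjusted p under 0.05 and a median of -0.08 (-0.04 in the labels' channel order). PSMD14, the deubiquitinase of the proteasome lid, had the highest mean (0.55, limma adjusted p = 0.621), with ratios of 0.15, 1.19, 1.12 and -0.27. In the working reading the means of both lists, from -0.40 to 0.55, lay below the UCHL1 mean of 1.80. UCHL1 was chosen for a high ratio, so the gap is a description. In the labels' channel order UCHL1 had a mean of 0.55, and the range of the lists is not given.

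Genes that supply the substrates of the family, or bind its members, gave no calls in either direction or reading. Over all genes limma raised 0.187% and lowered 0.044% in the working reading, and 0.627% and 0.022% in the labels' channel order. Counts of 0 in lists of this size thus lie near the background and are no result about them. Of 17 ubiquitin and NEDD8 genes 16 were measured, with a median of 0.09 and means from -0.31 for UBA6, an activating enzyme, to 0.35 for UBE2F, a NEDD8-conjugating enzyme. NEDD8 itself, whose precursor UCHL3 trims, had 0.35. None of these 16 had an unadjusted p under 0.05, against 5% of all genes, and their median was 0.29 in the labels' channel order, beside 0.05 for all genes. Of 10 partners of UCHL5 6 were measured, with a median of -0.01 and means from -0.35 for RUVBL2 to 0.15 for RUVBL1, both ATPases of INO80. None of these 6 had an unadjusted p under 0.05 in the working reading, against 5% of all genes. In the labels' channel order the list's median was 0.40 and RUVBL2 had 0.76 (limma adjusted p = 0.113). Of 14 partners of BAP1 11 were measured, with a median of -0.07 and means from -0.47 for HCFC1, a transcription cofactor (limma adjusted p = 0.838), to 0.29 for UBE2O, which ubiquitinates BAP1. HCFC1 was the 1 gene of these 11 past an unadjusted p of 0.05, against 5% of all genes, and the list's median in the labels' channel order was -0.04.

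Neuronal and neuroendocrine genes mark the cells where UCHL1 is abundant. Of 26 on the array 15 were measured on all 4 arrays. Of these 0 passed limma over all genes in either reading, and 0 had an unadjusted p under 0.05, against 5% of all genes. Over all genes 0.187% were raised and 0.044% lowered in the working reading, which was chosen partly from the strongest ratios. The shares were 0.627% and 0.022% in the labels' channel order. The median of the neuronal list was 0.01 (0.02 in the labels' channel order), beside 0.01 for all genes. Its line medians were -0.12 for DLD-1 and 0.11 for HT-29. SNAP25, of the synaptic vesicle fusion machinery, had the highest mean (0.27), TUBB3, a neuronal tubulin, had 0.20, and GAP43 and ELAVL4 had the lowest means, -0.22 and -0.24. Between 15 and 24 of the 26 were above background in channel 2 and between 16 and 23 in channel 1. Their summed signal over background was 62470 and 45273 in treated and untreated cells on DLD-1 array 1, and 32836 and 29971 on HT-29 array 1. In channels 2 and 1 of array 2 it was 44048 and 52177 for DLD-1, and 73111 and 68078 for HT-29. The part of these cells' genes in the UCHL1 ratios was not tested. CHGB, which encodes secretogranin 1, was above background in 0 of 8 channels. Of 7 stromal and blood markers 5 were measured and 0 passed. VIM was above background in 0 of 8 channels. The other markers mostly passed that mark, COL1A1, COL3A1 and CD3E in 8 channels, COL1A2 and CD14 in 7 and PTPRC in 6.

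The genes whose 4 ratios lay nearest to those of UCHL1 were MYL2, XAGE1B, VCX, ADRB3 and MAEL. Nearness was the Euclidean distance over the 4 log2 ratios, which does not depend on the reading of the channels. The genes were picked for closeness to ratios that UCHL1 was chosen on, so their nearness is a description. MYL2, a cardiac myosin light chain, was nearest at a distance of 1.04, with ratios of 2.99, 0.88, 1.87 and 0.66. XAGE1B, a cancer-testis antigen, stood at 1.44, VCX, a testis gene of the X chromosome, at 1.54, and ADRB3, a beta-adrenergic receptor, at 1.85. MAEL, which acts in piRNA-mediated transposon control in germ cells, stood at 1.98, where the median of all other genes was 4.13. Like UCHL1, MAEL was not above background in channel 1 on 2 arrays and XAGE1B on 1, while MYL2, VCX and ADRB3 passed in channel 1 on all 4.

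The relatives stayed short of the threshold in each processing setting run. The mean of UCHL1 ran between 0.55 in the labels' channel order, where the arrays of each line had opposite signs, and 3.68 with plain subtraction. UCHL1 was chosen for a high ratio and the working reading fixes its sign on array 2, so a mean above 0 in these settings is no sign of stability.

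**Figure D5:**
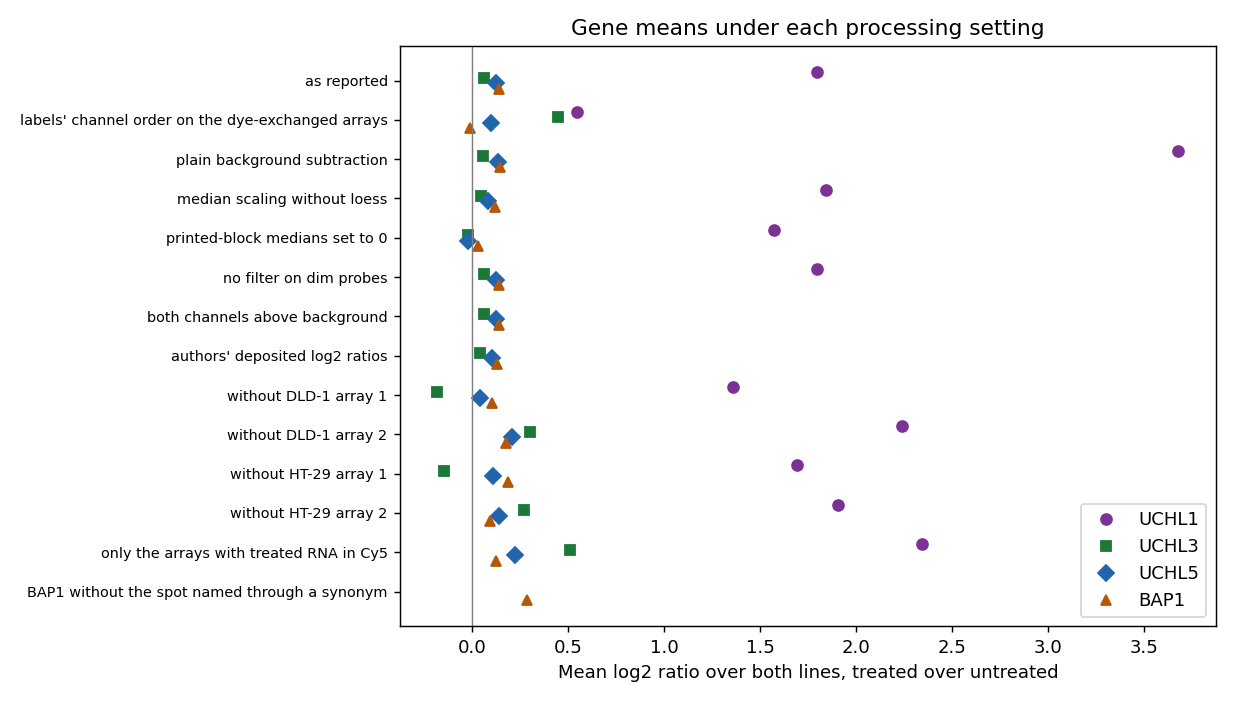
Mean log2 ratio over both lines, treated over untreated, of each gene (points) under each processing setting (rows). UCHL1 lies nearest to the relatives in the labels' channel order, the mean of ratios of opposite sign, at 0.55, where UCHL3 stands at 0.45.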

How the data were processed

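Total RNA of DLD-1 and HT-29 cells was extracted with TriZol, amplified with amino allyl nucleotides and coupled to Cy3 or Cy5, per the labels' protocols. The deposited scanner files give each of 30336 spots a linear intensity per channel with its local background and that background's SD, and a log2 ratio of channel 1 over channel 2 that the authors shifted by 1 constant per array. In the deposited series table these log2 ratios have the sign turned. The sources used here do not name the scanner or its software.

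Ratios were recomputed in R 4.3.3 with limma 3.58.1, using normexp background correction (offset 50) and 1 loess curve per array, with control and bad spots given no weight. Of 29640 spots that are not controls 49 were marked bad at least once and dropped. A spot entered if either channel or both exceeded background on each array used, and spots of a gene were averaged. Platform symbols, then descriptions, were brought to current RefSeq names, which gave 15564 named probes. The limma lmFit and eBayes fit tested the 2 line means against 0, two-sided, and in the main setting took 1 variance for all genes. The SE of 0.216 is thus shared by all genes, and p-values and intervals do not reflect a gene's own spread. The variance was not fully shared with plain subtraction, with block medians set to 0, with HT-29 array 2 left out, or from array 1 of both lines alone. P-values measure only the spread between these samples, pooled over genes, which may be technical, and the number of arrays limits the precision. Only the limma fit and its adjustment were tested on simulated log2 ratios. Background correction, normalization and the filter were not. Alternatives covered the channel reading, background, normalization, print blocks, filter, the authors' ratios and each array left out. Named list genes were drawn from the 2 highest and 2 lowest means of a list, and the 5 genes nearest to UCHL1 were named. A gene of the neuronal list is not reported here. Members and lists were chosen with earlier results of these data known.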

Additional observations from a re-analysis of the deposited data

Results flagged for a closer look

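The averaged BAP1 ratio was above 0 on both HT-29 arrays and below 0 on both DLD-1 arrays, so the lines went opposite ways in the working reading. The difference in mean log2 ratio, HT-29 minus DLD-1, was 0.51 (0.39 in HT-29 and -0.11 in DLD-1). It was not tested, the share of all genes with this sign pattern was not computed, and the spot described as BAP1 was above 0 on all 4 arrays. With block medians set to 0 the signs differed between the HT-29 arrays at both spots. The spot described as BAP1 then had -0.09 and 0.25 on HT-29 arrays 1 and 2, and -0.006 and 0.30 on the DLD-1 arrays. The HUCEP-13 spot had 0.34 and -0.11 in HT-29, and -0.14 and -0.30 in DLD-1. With the sign of array 2 turned, each line's arrays had opposite signs for BAP1.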

How the results depend on the processing

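UCHL1 had a mean of 0.55 in the labels' channel order (0.88 for DLD-1, 0.21 for HT-29) and 3.68 with plain subtraction (3.80 in HT-29, where the untreated signal sits at the floor). Its HT-29 mean was 0.68 with block medians set to 0. It had no mean over both lines with both channels required or in the authors' deposited ratios, which give it none on array 1. With 1 array left out its mean ran from 1.36 to 2.24, the DLD-1 mean from 1.63 to 3.39 and the HT-29 mean from 0.87 to 1.30. UCHL3 turned to -0.020 and UCHL5 to -0.020 with block medians set to 0, and BAP1 to -0.012 in the labels' channel order. With 1 array left out UCHL3 ran from -0.18 (DLD-1 array 1 left out) to 0.30, and was -0.15 with HT-29 array 1 left out, while UCHL5 ran from 0.04 to 0.21 and BAP1 from 0.09 to 0.19. No relative passed in any setting run (limma adjusted p from 0.194 to 1.00).

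The limma counts raised and lowered were 57 and 2 in the labels' channel order, 0 and 0 with plain subtraction (339 at an unadjusted p under 0.05), 4 and 0 with block medians set to 0 (447), 33 and 7 with no filter, 10 and 1 with both channels above background, and 263 and 30 from array 1 of both lines alone. Median scaling lowered 2, and the authors' ratios gave 12 and 0 (317). With 1 array left out the counts ran from 5 to 258 raised and from 0 to 99 lowered, namely 258 and 99 where DLD-1 array 2 was left out, 8 and 0 where DLD-1 array 1 was (128), 10 and 5 where HT-29 array 1 was, and 5 and 0 where HT-29 array 2 was (540). A line left with 1 array was assumed to vary like the other. The causes of these shifts were not tested. No paired analysis was possible because none is left to add: each log2 ratio already pairs treated with untreated RNA on 1 array, and the array numbers pair no samples between the lines.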
